A study of Mus musculus with 12 samples.

Results

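Proteoglycans and matrix glycoproteins typical of fibroblasts were followed in cultured mouse aortic endothelial cells labelled as null for the transcription factors Ets1, Ets2 or both. The set held 10 genes of the 11015 named on the table, namely Itih5, Dpt, Fbln1, Prelp, Bgn, Dcn, Lum, Fmod, Tgm2 and Gsn. They were taken by gene symbol and had 22 of the 20523 probe sets. RNA was measured on Affymetrix mouse expression arrays, with RMA log2 values as deposited. The cells came from the aorta of mice aged 4 weeks and were grown in an endothelial medium with serum and heparin. Cells labelled Ets1/2 null were Ets1-/-; Ets2fl/fl and had received lentiviral-egfp-Cre (2 arrays used), the virus whose Cre recombinase deletes the floxed Ets2 alleles. Ets1 null cells were Ets1-/-; Ets2fl/fl with lentiviral-egfp (3 arrays). Ets2 null cells were Ets1+/+; Ets2fl/fl with lentiviral-egfp-Cre (3 arrays). Wild-type (WT) cells were Ets1+/+; Ets2+/+ with lentiviral-egfp (3 arrays). Cre therefore went with the Ets2 null genotype, and Ets1 null cells carried floxed Ets2 alleles that WT cells lacked. For each single null the free text speaks of a wild-type gene, and groups here follow the titles and genotypes. The labels call the arrays biological replicates without saying whether each came from its own animal, so p-values measure the spread between these arrays.

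Small leucine-rich proteoglycans (decorin, biglycan, lumican, fibromodulin and PRELP) sit on collagen fibrils and in the zone next to basement membranes, where they set fibril spacing and hold growth factors. Dermatopontin, fibulin-1 and the hyaluronan-linked ITIH heavy chains join these proteoglycans to collagen, elastic fibres and hyaluronan, and tissue transglutaminase cross-links the assembled proteins. In the aorta most of these genes are known from adventitial fibroblasts and smooth muscle, while Tgm2 is also well known in endothelium.

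The arrays labelled Ets1/2 null had medians of 8.29 and 8.30 over all probe sets, against 9.05 to 9.15 in the 9 other arrays. Comparisons with them are therefore also given on a scale where every array has the same median ("centred"), which added 0.78 and 0.79 to these arrays and between -0.07 and 0.03 to the others. The third column of that label was the mean of the other columns in 20521 probe sets and was left out. The brightest of the Ets1 probe sets read 10.02 and 10.29 in arrays labelled Ets1/2 null, 8.31, 8.76 and 9.17 in Ets1 null, and 10.26, 9.84 and 10.06 in WT. It was thus higher in the arrays labelled Ets1/2 null than in Ets1 null (1.41 ± 0.25, limma adjusted p = 0.00161), which goes against the shared Ets1-/- label. A second bright Ets1 probe set was also higher there, at 9.81 and 9.81 against 8.13, 8.77 and 8.92 in Ets1 null (1.20 ± 0.25, adjusted p = 0.00369). A dimmer one was lower there at 6.49 and 7.05, against 7.72, 8.57 and 8.51 in Ets1 null (-1.50 ± 0.27, adjusted p = 0.0015). That one was not called after centring (-0.65, adjusted p = 0.0814). The remaining one had 0.09 (adjusted p = 0.834) and, centred, 0.93 (adjusted p = 0.0391). The brighter Ets2 probe set read 11.02 and 9.63 in arrays labelled Ets1/2 null, 9.63, 9.35 and 10.13 in Ets2 null arrays, and 9.72, 10.01 and 10.70 in WT. Whether these probe sets lie in the deleted exons was not known, so they do not check the deletion, and groups are called by their labels throughout. By a Y-linked probe set the 3 Ets2 null arrays and WT array 1 were male, and the remaining 7 arrays female. Of 29 endothelial markers 9 were on the table, with Eng at 7.44 and 7.39 in arrays labelled Ets1/2 null, 8.29 to 8.32 in Ets1 null arrays, 9.91 to 10.82 in Ets2 null and 8.21 to 10.54 in WT. Against WT, 7 of the 9 were below 0 as deposited in arrays labelled Ets1/2 null, beside 8906 of all 11015 genes. Flt1 (0.78) and Ctla2a (0.48) were above 0. After centring 0 of the 9 were called in that comparison. Pecam1, Cdh5 and Vwf were not used here. Of 24 fibroblast markers 18 were on the table, and the fibroblast receptor Pdgfra read 10.53 to 13.31 over all arrays. In bulk RNA, fewer cells of a type and less RNA per cell cannot be told apart.

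Promoter sequence is shown for the members with the widest differences, since ETS factors bind DNA with the core letters GGAA. Each line runs 5′ to 3′ along the gene's own strand, from RefSeq (GRCm38.p6), with GGAA or its complement TTCC in capitals.
Itih5, chr2:10153293-10153592, plus strand: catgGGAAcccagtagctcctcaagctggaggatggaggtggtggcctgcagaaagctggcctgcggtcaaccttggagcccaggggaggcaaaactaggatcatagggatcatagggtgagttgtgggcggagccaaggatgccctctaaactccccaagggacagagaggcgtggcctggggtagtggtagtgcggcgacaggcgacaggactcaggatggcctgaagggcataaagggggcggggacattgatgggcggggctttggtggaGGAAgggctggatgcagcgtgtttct
Dpt, chr1:164796413-164796712, plus strand: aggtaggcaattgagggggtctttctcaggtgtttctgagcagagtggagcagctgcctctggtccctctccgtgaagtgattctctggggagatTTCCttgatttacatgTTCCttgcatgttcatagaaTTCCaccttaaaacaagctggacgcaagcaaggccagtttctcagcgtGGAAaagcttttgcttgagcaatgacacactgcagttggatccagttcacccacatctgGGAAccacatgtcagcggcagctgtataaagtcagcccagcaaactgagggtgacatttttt
Prelp, chr1:133921352-133921651, minus strand: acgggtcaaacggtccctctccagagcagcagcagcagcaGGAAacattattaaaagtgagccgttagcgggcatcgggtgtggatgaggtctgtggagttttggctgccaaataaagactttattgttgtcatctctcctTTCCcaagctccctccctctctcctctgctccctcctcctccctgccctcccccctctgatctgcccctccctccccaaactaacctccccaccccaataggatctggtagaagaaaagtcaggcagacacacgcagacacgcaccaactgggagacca
The Itih5 window held 2 such matches, the Dpt window 5 and the Prelp window 2. GGAA on either strand was present in 9 of 10 promoter windows of 7 members (all but Dcn, Lum and Tgm2), and in 96.0% of 32851 promoter windows of all genes, so its presence does not set the members apart. The longer motif CCGGAAGT on either strand was in 0 of the 10 member windows and in 3.89% of all windows. A match is a run of letters and not a bound site.

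Against WT, Itih5 and Gsn were higher in Ets2 null cells. Prelp and 4 of 5 Tgm2 probe sets averaged higher in the arrays labelled Ets1/2 null and in Ets1 null than in Ets2 null or WT. All 3 Fbln1 probe sets averaged lower in those groups than in WT, as deposited and centred. Calls rest on limma over 11 arrays, with p-values adjusted by Benjamini-Hochberg over all 20523 probe sets and a threshold of 0.05. Arrays labelled Ets1/2 null against WT gave 4 of 22 member probe sets called higher, beside 2.87% of all probe sets, and 7 called lower, beside 46.0%. After centring these counts were 8 higher, beside 21.6%, and 3 lower, beside 14.4%. The probe sets called higher were of 2 genes as deposited and 3 centred, and those called lower of 5 and 3. Ets1 null against WT gave 0 of 22 in either direction, beside 0.0% of all probe sets higher and 0.00487% lower. Without adjustment, 10 of 22 member probe sets had a limma p under 0.05 in that comparison, beside 9.26% of all probe sets. Those were probe sets of Tgm2, Prelp, Fbln1 and Dpt only, with all 5 of Tgm2 among them. Ets2 null against WT gave 2 higher, beside 0.292%, and 0 lower, beside 0.287%. There 8 had an unadjusted limma p under 0.05, beside 20.7% of all probe sets, and they were of Itih5, Dpt, Gsn and Tgm2. The members were chosen with earlier results of these data known, and probe sets of 1 gene are not independent. These counts therefore do not test whether the members stand out. The median difference of the 22 probe sets in the arrays labelled Ets1/2 null was 0.05, beside -0.63 over all probe sets, and 0.85 beside 0.16 after centring. In Ets1 null it was 0.03, as over all probe sets, and in Ets2 null 0.16 beside -0.01. These 3 comparisons share the WT arrays. The members did not move as a block, and each is described in turn.

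**Figure D1:**
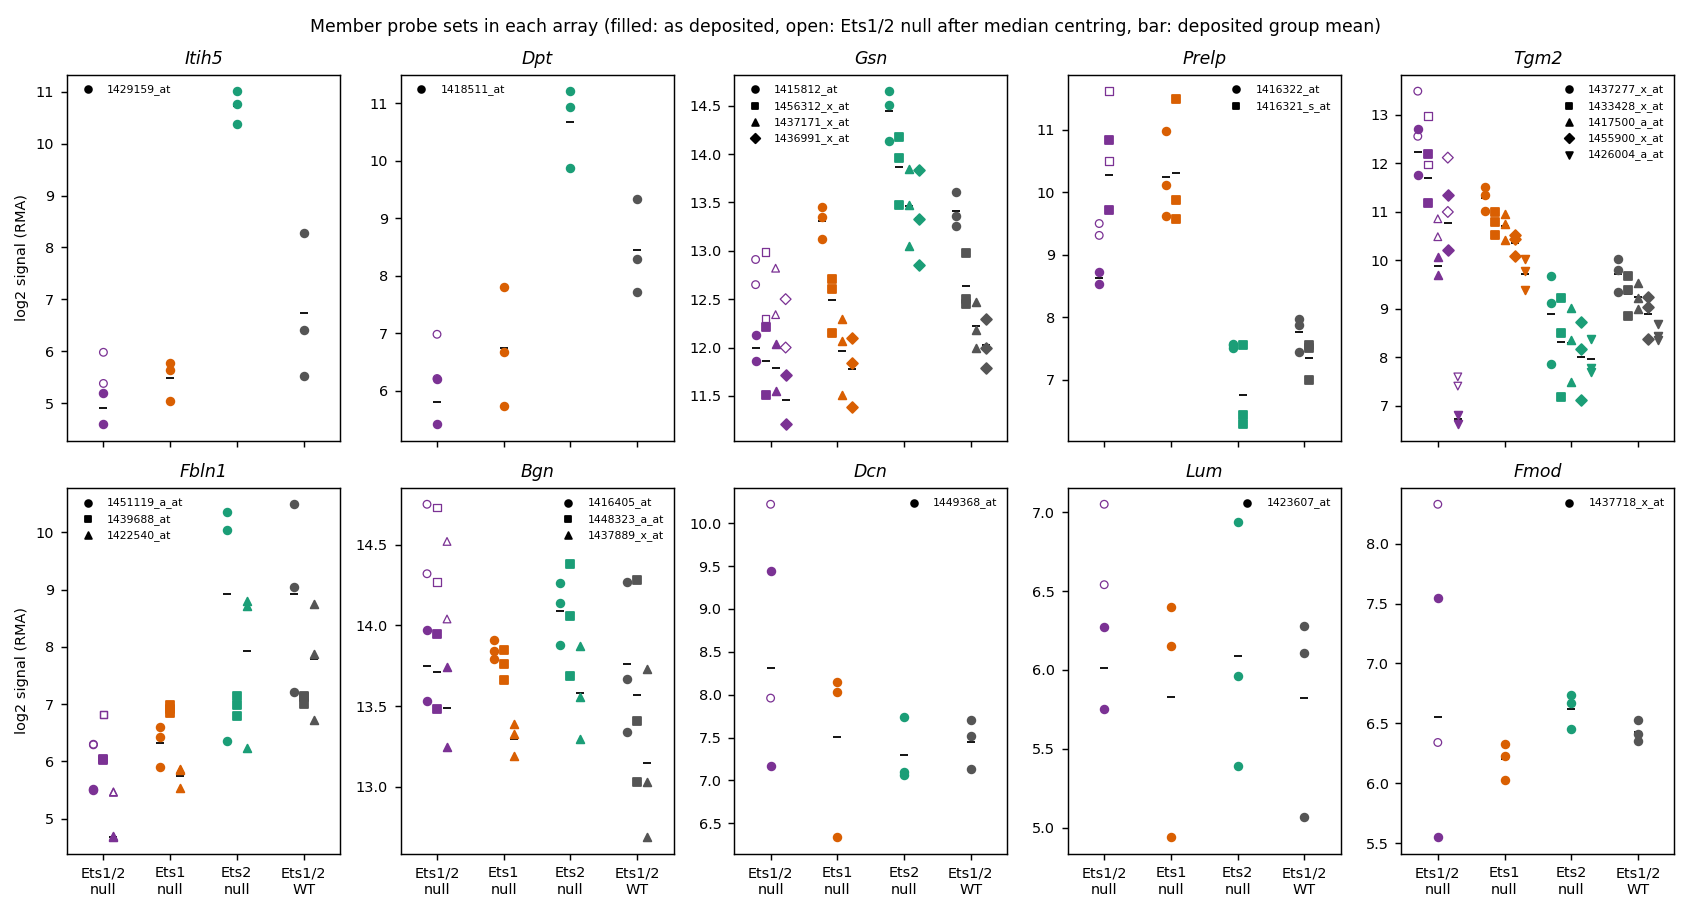
Log2 signal (vertical axis) of every probe set of the 10 genes in each of 11 arrays, by group from Ets1/2 null on the left to Ets1/2 WT on the right. Filled symbols are deposited values, open symbols the Ets1/2 null arrays after centring and bars group means of deposited values. Itih5 lay at 10.37 to 11.01 in Ets2 null arrays, above every other array.

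Itih5 belongs to the inter-alpha-trypsin inhibitor heavy chains, which become linked to hyaluronan in the matrix. It read 5.20 and 4.60 in arrays labelled Ets1/2 null (5.98 and 5.38 centred), 5.05, 5.78 and 5.63 in Ets1 null arrays, 10.77, 10.37 and 11.01 in Ets2 null, and 6.40, 5.53 and 8.28 in WT. The Ets2 null arrays were the high ones and did not overlap with any other group, whereas the arrays labelled Ets1/2 null, Ets1 null and WT lay close together apart from WT array 3. The deposited group means stood in the order Ets2 null, WT, Ets1 null and Ets1/2 null, with the last pair exchanged after centring (5.68 in arrays labelled Ets1/2 null and 5.42 in Ets1 null), and of these neighbours only Ets2 null and WT differed by more than the spread. Itih5 was higher in Ets2 null than in WT by 3.98 ± 0.59 on the log2 scale (SE, n = 3 and 3, limma adjusted p = 0.0354), or 15.8-fold. That call was lost when any 1 of the Ets1 null or Ets2 null arrays or WT array 1 or 2 was left out, with differences of 3.38 to 4.15 and adjusted p of 0.0524 to 0.103. It was also lost with a term for male arrays, where the difference was 4.32 and the adjusted p 0.225. The male WT array 1 read 6.40, below all Ets2 null arrays. In arrays labelled Ets1/2 null Itih5 was lower than in Ets2 null by 5.82 ± 0.66 (56.4-fold, adjusted p = 0.000125; centred -5.04, adjusted p = 0.000662), and this call held in all 21 alternatives tried. Its readings there lay far below the medians of these arrays, 8.3 and 8.29. No detection limit was available, so the size of folds that rest on such low readings, here and in the genes below, is uncertain. Against WT the arrays labelled Ets1/2 null had -1.84 ± 0.66 (adjusted p = 0.0438), which was not called after centring (-1.04, adjusted p = 0.243) and was lost without any 1 array other than WT array 2 or 3 (-2.14 to -1.53, adjusted p of 0.052 to 0.196). Ets1 null against WT had -1.25 ± 0.59 (adjusted p = 0.556).

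Dpt encodes dermatopontin, a small tyrosine-rich matrix protein that binds decorin and collagen. It read 6.20 and 5.42 in arrays labelled Ets1/2 null (6.98 and 6.21 centred), 5.74, 6.68 and 7.81 in Ets1 null arrays, 9.88, 10.93 and 11.21 in Ets2 null, and 7.72, 9.33 and 8.29 in WT. Its group means stood in the order Ets2 null, WT, Ets1 null and Ets1/2 null on both scales: Ets2 null arrays all lay above WT, and arrays labelled Ets1/2 null all lay below WT. Ets1 null overlapped with WT in 1 array as deposited and not after centring. Dpt was lower in arrays labelled Ets1/2 null than in Ets2 null by 4.86 ± 0.67 (29.1-fold, limma adjusted p = 0.000356; centred -4.09, adjusted p = 0.00186), a call that held in all 22 alternatives. Against WT these arrays had -2.63 ± 0.67 (adjusted p = 0.00967), and -1.84 with an adjusted p of 0.0543 after centring. Without the second array labelled Ets1/2 null the deposited difference was -2.25 (adjusted p = 0.0724). Ets2 null against WT had 2.23 ± 0.60 (adjusted p = 0.1), and Ets1 null against WT -1.70 ± 0.60 (adjusted p = 0.47).

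The median of the 18 fibroblast markers, as a difference from the mean of the 4 groups, was 0.01 and -0.46 in arrays labelled Ets1/2 null, -0.25 to -0.08 in Ets1 null arrays, -0.03 to 0.71 in Ets2 null and 0.27 to 0.66 in WT. As deposited, every array of the Ets1/2 null label and of Ets1 null lay below every WT array, and Ets2 null overlapped with WT. After centring the medians were 0.61 and 0.14 in arrays labelled Ets1/2 null, -0.50 to -0.31 in Ets1 null arrays, -0.20 to 0.53 in Ets2 null and 0.07 to 0.45 in WT, so that only Ets1 null lay apart from WT. The part of these markers in the Itih5 and Dpt differences was not tested.

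Fbln1 encodes fibulin-1, a calcium-binding glycoprotein of basement membranes and elastic fibres. Its brightest probe set, 1451119_a_at, read 5.52 and 5.50 in arrays labelled Ets1/2 null (6.30 and 6.29 centred), 6.60, 6.43 and 5.91 in Ets1 null arrays, 6.35, 10.36 and 10.04 in Ets2 null, and 10.49, 9.05 and 7.22 in WT. The Ets2 null and WT arrays were split, with a low Ets2 null array 1 and WT array 3, while every array of the Ets1/2 null label and of Ets1 null lay below every WT array. Probe set 1422540_at showed the same split, at 4.68 and 4.69 in arrays labelled Ets1/2 null (5.46 and 5.47 centred), 5.87, 5.85 and 5.53 in Ets1 null arrays, 6.23, 8.80 and 8.71 in Ets2 null, and 8.75, 7.88 and 6.72 in WT. This second probe set was lower in arrays labelled Ets1/2 null than in WT by 3.10 ± 0.77 (8.56-fold, limma adjusted p = 0.00878; centred -2.30, adjusted p = 0.0447). The centred call was lost when WT array 1 or 2, any Ets1 null array or either array labelled Ets1/2 null was left out, at -2.31 to -1.80 with adjusted p of 0.0612 to 0.143. Against Ets2 null the arrays labelled Ets1/2 null had -3.23 ± 0.77 (adjusted p = 0.00711; centred -2.46, adjusted p = 0.0357), and the centred call was lost without 1 array of any group (WT array 2, any Ets1 null array, Ets2 null array 2 or 3, or either array labelled Ets1/2 null), at -2.47 to -2.01 with adjusted p of 0.0501 to 0.118. Adjusting for male arrays ended this call on both scales, at -1.79 (adjusted p = 0.314) and, centred, -0.94 (adjusted p = 0.676). Ets1 null against WT had -2.03 ± 0.69 (adjusted p = 0.468). The brightest probe set had -3.41 ± 1.19 in arrays labelled Ets1/2 null against WT (adjusted p = 0.0397), which was not called after centring (-2.62, adjusted p = 0.119) and not without WT array 1 or 2, 1 Ets1 null array or 1 array labelled Ets1/2 null. The third probe set, 1439688_at, read 6.04 and 6.03 in arrays labelled Ets1/2 null (6.82 and 6.82 centred), 6.84 to 6.99 in Ets1 null arrays, 6.80 to 7.15 in Ets2 null and 7.01 to 7.14 in WT, with a deposited difference of -1.05 from WT (adjusted p = 0.000277) and a centred one of -0.26 (adjusted p = 0.179). Serpinf1, a fibroblast marker singled out after its values were seen because it was among the genes most like Fbln1, read 7.46 and 7.21 in arrays labelled Ets1/2 null, 7.69, 8.33 and 9.07 in Ets1 null arrays, 8.29, 12.19 and 11.51 in Ets2 null, and 11.51, 10.46 and 9.55 in WT. It was low in the same Ets2 null array as Fbln1. Some other markers of the list were also lowest in Ets2 null array 1. Among them were Cd248 at 8.86, 9.84 and 10.94 and Pdpn at 6.28, 7.43 and 7.69 in Ets2 null arrays. Others were not, with Col1a1 at 10.40, 9.17 and 11.22 and Twist1 at 10.03, 10.37 and 9.62. Pdgfra varied little there, at 12.91, 13.06 and 13.23. The part of the list in the Fbln1 differences was not tested.

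Prelp encodes a basic leucine-rich proteoglycan that binds heparan sulphate and collagen and is thought to anchor basement membranes to the tissue beneath. Probe set 1416321_s_at read 10.84 and 9.72 in arrays labelled Ets1/2 null (11.62 and 10.50 centred), 11.49, 9.88 and 9.57 in Ets1 null arrays, 6.43, 6.29 and 7.55 in Ets2 null, and 7.55, 6.99 and 7.50 in WT. Probe set 1416322_at read 8.72 and 8.53 in arrays labelled Ets1/2 null (9.50 and 9.31 centred), 10.99, 10.12 and 9.62 in Ets1 null arrays, 7.57, 7.50 and 7.56 in Ets2 null, and 7.87, 7.97 and 7.45 in WT. In both probe sets every array of the Ets1/2 null label and of Ets1 null lay above every array of Ets2 null and WT. The first probe set was higher in arrays labelled Ets1/2 null than in WT by 2.93 ± 0.60 (7.62-fold, limma adjusted p = 0.00342; centred 3.73, adjusted p = 0.00201), and higher than in Ets2 null by 3.52 ± 0.60 (11.5-fold, adjusted p = 0.00125; centred 4.30). Those calls held in all alternatives tried. The second had 0.86 ± 0.34 against WT (adjusted p = 0.061; centred 1.65, adjusted p = 0.00596) and 1.08 ± 0.34 against Ets2 null (adjusted p = 0.0252; centred 1.85, adjusted p = 0.00369). Without Ets2 null array 1 or 2 or either array labelled Ets1/2 null its deposited call against Ets2 null was lost, at 0.98 to 1.18 with adjusted p of 0.0545 to 0.114. Adjusting for male arrays also ended it, as deposited (1.24, adjusted p = 0.168) and centred (2.08, adjusted p = 0.0869). In Ets1 null against WT the differences were 2.96 ± 0.54 and 2.48 ± 0.30, or 7.80-fold and 5.57-fold, with limma adjusted p of 0.214 and 0.0894, neither called. The second was called without WT array 3 (2.32, adjusted p = 0.0415), without Ets1 null array 1 (2.11, adjusted p = 0.0118) or without Ets1 null array 3 (2.79, adjusted p = 0.0337). In Ets2 null against WT the differences were -0.59 ± 0.54 and -0.22 ± 0.30 (adjusted p = 0.568 and 0.718). The 2 probe sets differed from each other within the arrays labelled Ets1/2 null: against Ets1 null they had -0.03 ± 0.60 and -1.62 ± 0.34 (adjusted p = 0.969 and 0.00369; centred 0.81 and -0.77, neither called).

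No probe set of the other small leucine-rich proteoglycans was called in either single null against WT. Bgn, biglycan, was among the brightest readings, with 13.97 and 13.53 in arrays labelled Ets1/2 null (14.75 and 14.32 centred), 13.79, 13.84 and 13.91 in Ets1 null arrays, 14.14, 13.88 and 14.26 in Ets2 null, and 13.67, 14.27 and 13.34 in WT by probe set 1416405_at. WT arrays alone spanned all the deposited Ets1 null, Ets2 null and Ets1/2 null readings of this probe set. Probe set 1448323_a_at read 13.95 and 13.48 in arrays labelled Ets1/2 null (14.73 and 14.27 centred), 13.66 to 13.85 in Ets1 null arrays, 13.69 to 14.38 in Ets2 null and 13.03 to 14.28 in WT. Probe set 1437889_x_at read 13.74 and 13.25 (14.52 and 14.04 centred) in arrays labelled Ets1/2 null, 13.19 to 13.39 in Ets1 null arrays, 13.30 to 13.87 in Ets2 null and 12.69 to 13.73 in WT. None of the 3 Bgn probe sets was called in any comparison as deposited, with differences of -0.01 to 0.34 in arrays labelled Ets1/2 null, 0.08 to 0.18 in Ets1 null and 0.33 to 0.47 in Ets2 null against WT. After centring, the arrays labelled Ets1/2 null had 0.79 ± 0.26 by 1416405_at (limma adjusted p = 0.0405) and 1.14 ± 0.29 by 1437889_x_at (adjusted p = 0.0156) against WT. The 1437889_x_at call was lost without the first array labelled Ets1/2 null (0.90, adjusted p = 0.101). The 1416405_at call was kept in only 2 of 15 alternatives and was lost without WT array 1 or 3, any Ets1 null array, Ets2 null array 1 or 2 or either array labelled Ets1/2 null (0.56 to 1.01, adjusted p of 0.0521 to 0.214). Against Ets1 null, 1437889_x_at had 1.03 centred (adjusted p = 0.0235), lost without any 1 Ets1 null array or the first array labelled Ets1/2 null (0.79 to 1.07, adjusted p of 0.0512 to 0.146).

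Dcn, decorin, the founding member of the family, read 9.44 and 7.17 in arrays labelled Ets1/2 null (10.22 and 7.96 centred), 6.34, 8.03 and 8.15 in Ets1 null arrays, 7.06, 7.74 and 7.10 in Ets2 null, and 7.71, 7.52 and 7.13 in WT. The first array labelled Ets1/2 null was the highest and its partner lay among the other groups. The difference from WT was 0.86 ± 0.69 (limma adjusted p = 0.33; centred 1.65, adjusted p = 0.0901), and without the second array it was 1.99 (adjusted p = 0.0431). Lum, lumican, lies beside Dcn on the chromosome in the RefSeq gene table. It read 6.27 and 5.75 in arrays labelled Ets1/2 null (7.05 and 6.54 centred), 4.94, 6.15 and 6.40 in Ets1 null arrays, 5.39, 5.96 and 6.94 in Ets2 null, and 5.07, 6.11 and 6.28 in WT. All 4 groups overlapped as deposited, and no comparison called it. Fmod, fibromodulin, read 7.55 and 5.55 in arrays labelled Ets1/2 null (8.33 and 6.34 centred), 6.33, 6.23 and 6.03 in Ets1 null arrays, 6.67, 6.45 and 6.74 in Ets2 null, and 6.53, 6.35 and 6.41 in WT. Its highest and lowest readings were both in arrays labelled Ets1/2 null, so that the difference from WT (0.12 ± 0.45, adjusted p = 0.847) was -0.88 (adjusted p = 0.00741) without the first and 1.12 (adjusted p = 0.00268) without the second.

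Tgm2 encodes tissue transglutaminase, which cross-links fibronectin, collagen and other matrix proteins. Its brightest probe set, 1437277_x_at, read 12.71 and 11.77 in arrays labelled Ets1/2 null (13.49 and 12.56 centred), 11.01, 11.35 and 11.51 in Ets1 null arrays, 7.87, 9.69 and 9.13 in Ets2 null, and 9.36, 9.80 and 10.04 in WT. Probe sets 1433428_x_at and 1455900_x_at gave the same order, at 12.20 and 11.19 (12.98 and 11.98 centred) and at 11.34 and 10.21 (12.12 and 11 centred) in arrays labelled Ets1/2 null, against 8.86 to 9.69 and 8.38 to 9.25 in WT. In Ets1 null they averaged 10.77 ± 0.24 and 10.36 ± 0.23 (SD, n = 3), and in Ets2 null they read 7.19 to 9.23 and 7.12 to 8.73. In these probe sets every array of the Ets1/2 null label and of Ets1 null lay above every WT array, and Ets2 null overlapped with WT. They were higher in arrays labelled Ets1/2 null than in WT by 2.51 ± 0.49, 2.38 ± 0.54 and 1.88 ± 0.49 (limma adjusted p = 0.00267, 0.00577 and 0.0109), and after centring by 3.31, 3.17 and 2.68. Without the first array labelled Ets1/2 null the differences of 1433428_x_at and 1455900_x_at were 1.88 (adjusted p = 0.0527) and 1.32 (adjusted p = 0.0961). Against Ets2 null they were higher by 3.34, 3.38 and 2.77, or 10.2-fold, 10.4-fold and 6.80-fold (adjusted p = 0.000535, 0.000855 and 0.00147). Adjusting for male arrays ended the calls of 1433428_x_at (2.70, adjusted p = 0.0682; centred 3.54, adjusted p = 0.0666) and 1455900_x_at (1.99, adjusted p = 0.109; centred 2.83, adjusted p = 0.0822). The call of 1437277_x_at was then lost only after centring (3.63, adjusted p = 0.0501).

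The other Tgm2 probe sets differed from these in the arrays labelled Ets1/2 null. Probe set 1417500_a_at read 10.08 and 9.71 there (10.86 and 10.49 centred), 10.43, 10.76 and 10.96 in Ets1 null arrays, 7.50, 9.02 and 8.36 in Ets2 null, and 8.99, 9.22 and 9.54 in WT. Probe set 1426004_a_at read 6.63 and 6.82 in arrays labelled Ets1/2 null (7.41 and 7.60 centred), 9.40, 9.78 and 10.02 in Ets1 null arrays, 7.71, 8.39 and 7.79 in Ets2 null, and 8.36, 8.70 and 8.44 in WT. Probe set 1417500_a_at had 0.64 in arrays labelled Ets1/2 null against WT (limma adjusted p = 0.197; centred 1.44, adjusted p = 0.018), and its centred call was lost without WT array 1 or the first array labelled Ets1/2 null (1.33 and 1.26, adjusted p = 0.0522 and 0.0954). Against Ets2 null it had 1.60, which was not called when male arrays were adjusted for (1.21, adjusted p = 0.221). Probe set 1426004_a_at was lowest in the arrays in which the brightest Tgm2 probe set was highest, and overlapped with no other group there. It was lower in arrays labelled Ets1/2 null than in WT by 1.77 ± 0.25 (3.41-fold, limma adjusted p = 0.0004; centred -0.98, adjusted p = 0.0143) and lower than in Ets1 null (-3.01 ± 0.25, 8.04-fold, adjusted p = 2.07e-05; centred -2.16, adjusted p = 0.000356). The deposited call against Ets1 null held in all 20 alternatives, and the centred one against WT was lost without the first array labelled Ets1/2 null (-0.88, adjusted p = 0.0742). The 5 Tgm2 differences from WT spanned 4.28 in arrays labelled Ets1/2 null (-1.77 to 2.51), but only 0.33 in Ets1 null (1.24 to 1.56) and 0.47 in Ets2 null, where all 5 were below 0. In Ets1 null against WT all 5 were above 0, at 2.36-fold to 2.96-fold, and none was called (limma adjusted p of 0.209 to 0.461). The 5 probe sets read 1 gene on the same arrays and do not count as separate results. A difference in the arrays labelled Ets1/2 null thus depended on the probe set. The suffix x marks probe sets that may bind other transcripts and the suffix a those shared by transcripts of 1 gene, and whether either plays a part here was not tested.

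Gsn encodes gelsolin, which severs and caps actin filaments and also has a secreted form. Its brightest probe set, 1415812_at, read 12.13 and 11.86 in arrays labelled Ets1/2 null (12.91 and 12.65 centred), 13.45, 13.35 and 13.12 in Ets1 null arrays, 14.51, 14.14 and 14.65 in Ets2 null, and 13.36, 13.26 and 13.61 in WT. Ets2 null arrays lay above all others and arrays labelled Ets1/2 null below all others, also after centring, while Ets1 null and WT overlapped. It was higher in Ets2 null than in WT by 1.03 ± 0.18 (2.04-fold, limma adjusted p = 0.0452). As for Itih5, this call was lost without WT array 1 or 2 or any 1 Ets1 null or Ets2 null array, at 0.92 to 1.17 with adjusted p of 0.065 to 0.123, and with a term for male arrays (1.07, adjusted p = 0.297). It was lower in arrays labelled Ets1/2 null than in Ets2 null by 2.44 ± 0.20 (5.41-fold, adjusted p = 1.94e-05; centred -1.66, adjusted p = 0.000391) and lower than in WT by 1.41 ± 0.20 (2.66-fold, adjusted p = 0.00038; centred -0.62, adjusted p = 0.0348). The deposited calls held in all 22 alternatives. The centred call against WT was lost in 9 of 15, among them without WT array 1 (-0.62, adjusted p = 0.0741), WT array 3 (-0.53, adjusted p = 0.0782) and either array labelled Ets1/2 null (-0.75 and -0.48, adjusted p = 0.0519 and 0.182).

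The other Gsn probe sets followed it in part. Probe set 1456312_x_at read 12.21 and 11.51 in arrays labelled Ets1/2 null (12.99 and 12.30 centred), 12.15 to 12.71 in Ets1 null arrays, 13.96, 13.47 and 14.18 in Ets2 null, and 12.45, 12.50 and 12.98 in WT. Probe set 1437171_x_at read 12.04 and 11.55 in arrays labelled Ets1/2 null (12.82 and 12.34 centred), 11.51 to 12.29 in Ets1 null arrays, 13.47, 13.05 and 13.85 in Ets2 null, and 12.18, 12 and 12.47 in WT. Probe set 1436991_x_at read 11.72 and 11.21 in arrays labelled Ets1/2 null (12.50 and 12 centred), 11.39 to 12.10 in Ets1 null arrays, 13.33, 12.85 and 13.83 in Ets2 null, and 11.79 to 12.30 in WT. In all of them the Ets2 null arrays lay above every WT array, by 1.23 ± 0.27, 1.24 ± 0.27 and 1.31 ± 0.29, with limma adjusted p of 0.0703, 0.0703 and 0.0707. All were lower in arrays labelled Ets1/2 null than in Ets2 null, by 2.01, 1.66 and 1.87 as deposited (adjusted p = 0.00056, 0.00176 and 0.00124) and by 1.24, 0.89 and 1.10 after centring (adjusted p = 0.0111, 0.0463 and 0.0254). Those centred calls were each lost without the second array labelled Ets1/2 null, at -0.89, -0.65 and -0.85 (adjusted p = 0.0883, 0.239 and 0.154). That of 1437171_x_at was also lost without WT array 1 or 2, Ets1 null array 2, Ets2 null array 1 or 3 or the first array labelled Ets1/2 null, and that of 1436991_x_at without Ets2 null array 1 or 3 (-1.13 to -0.70, adjusted p of 0.0551 to 0.109). Adjusting for male arrays ended the 3 centred calls (-1.45, -0.88 and -1.08, adjusted p = 0.136, 0.351 and 0.285) and the deposited one of 1437171_x_at (-1.72, adjusted p = 0.0527). Against WT the arrays labelled Ets1/2 null had -0.78, -0.42 and -0.56 as deposited and 0.01, 0.37 and 0.23 after centring, none called.

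**Figure D2:**
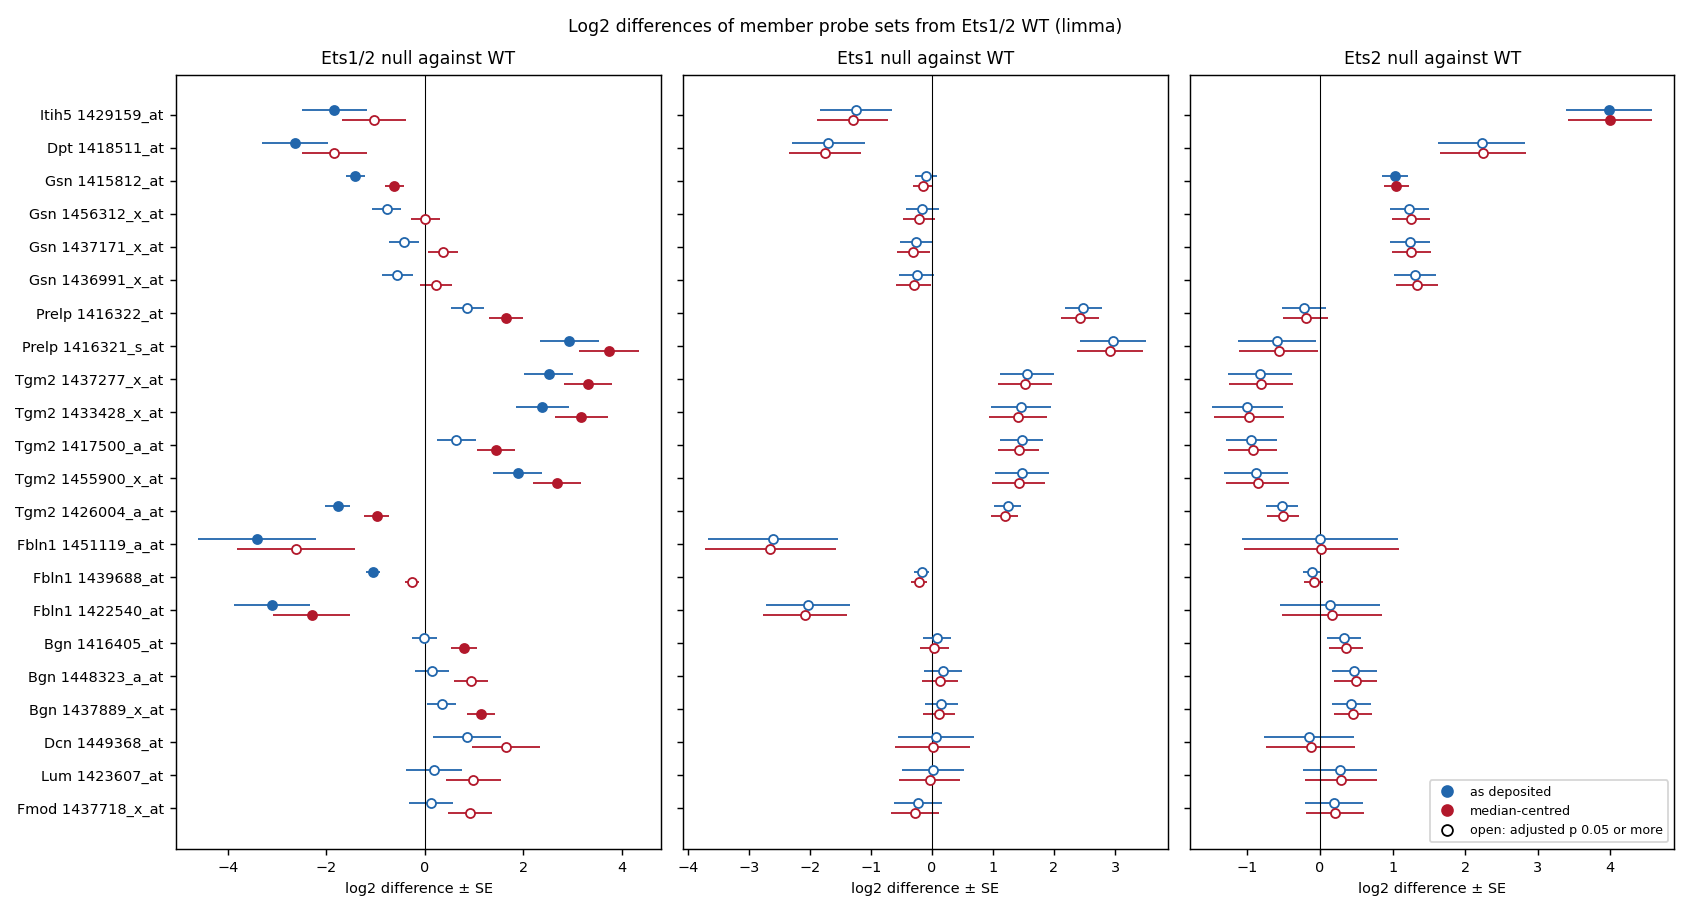
Log2 differences (horizontal axis, with SE) of the 22 member probe sets from Ets1/2 WT in Ets1/2 null, Ets1 null and Ets2 null arrays, from limma, as deposited in blue and centred in red. Filled points had an adjusted p under 0.05. Tgm2 1426004_a_at lay at -1.77 in Ets1/2 null while 1437277_x_at lay at 2.51.

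The difference of the arrays labelled Ets1/2 null from Ets1 null was set against that of Ets2 null from WT. It was called lower, as deposited and centred, in Itih5, 1 of 4 Gsn probe sets and 1 of 5 Tgm2 probe sets. In the remaining Gsn probe sets, Dpt and Prelp 1416322_at it was also lower on both scales, but called only as deposited. Arrays labelled Ets1/2 null against Ets1 null, which differ in Cre, gave 0 of 22 member probe sets higher, beside 1.76% of all, and 4 lower, beside 46.0%. After centring these were 4 higher, beside 21.8%, and 1 lower, beside 13.7%. Against Ets2 null the arrays labelled Ets1/2 null gave 6 higher, beside 3.12%, and 10 lower, beside 45.7%, and after centring 6 higher, beside 20.2%, and 7 lower, beside 14.9%. Those called higher were of 2 genes, Prelp and Tgm2, on both scales. The interaction subtracts the difference of Ets2 null from WT from that of Ets1/2 null from Ets1 null, and goes by the labels. It was called higher in 0 of 22, beside 1.44%, and lower in 9, beside 34.0%, as deposited. After centring it was called higher in 3, all of Tgm2, beside 10.3%, and lower in 3, beside 9.36%. Itih5 had -0.59 ± 0.66 in arrays labelled Ets1/2 null against Ets1 null (limma adjusted p = 0.494) and 3.98 in Ets2 null against WT, an interaction of -4.57 ± 0.88 (adjusted p = 0.004; centred -3.74, adjusted p = 0.0186). The centred call was lost without the second array labelled Ets1/2 null (-3.45, adjusted p = 0.0579). Gsn 1415812_at had -1.31 ± 0.20 in arrays labelled Ets1/2 null against Ets1 null (adjusted p = 0.000571; centred -0.47, adjusted p = 0.0896) and 1.03 in Ets2 null against WT, an interaction of -2.34 ± 0.26 (adjusted p = 0.000254; centred -1.51, adjusted p = 0.00517). The other Gsn interactions were called only as deposited, at -1.85, -1.41 and -1.62 (adjusted p = 0.00685, 0.0247 and 0.0173), with -1.03, -0.58 and -0.80 after centring (adjusted p = 0.0966, 0.337 and 0.216). Tgm2 1426004_a_at had -3.01 and -0.53 in the same comparisons, an interaction of -2.47 ± 0.33 (adjusted p = 0.00064; centred -1.65, adjusted p = 0.00989). The Gsn 1415812_at and Tgm2 1426004_a_at interactions were called in all alternatives run on either scale. For Dpt the interaction was -3.16 ± 0.89 (adjusted p = 0.0227) and, centred, -2.34 (adjusted p = 0.0929). It was lost without the second array labelled Ets1/2 null (-2.77, adjusted p = 0.0793). The brightest Tgm2 probe set had an interaction of the other sign, 1.78 ± 0.66 (adjusted p = 0.0638) and, centred, 2.60 (adjusted p = 0.0249). That centred call was lost without Ets1 null array 1 or 2 or the first array labelled Ets1/2 null, at 2.13 to 2.63 with adjusted p of 0.0518 to 0.0901.

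**Figure D3:**
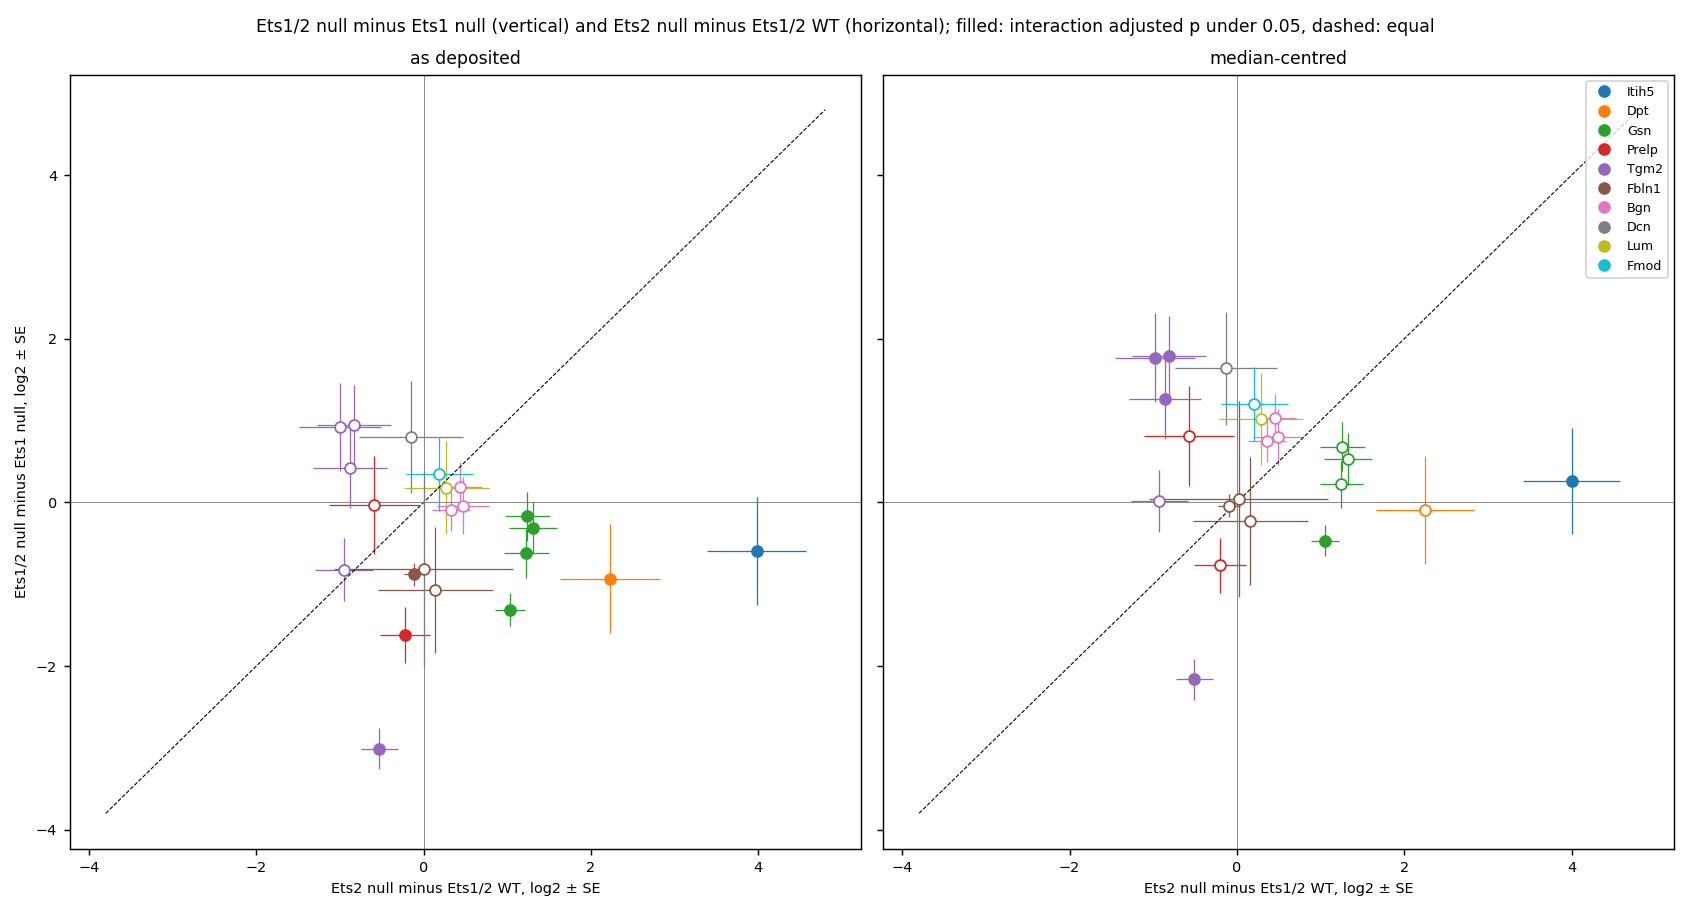
Each point is a member probe set, with its log2 difference of Ets1/2 null from Ets1 null on the vertical axis and of Ets2 null from Ets1/2 WT on the horizontal axis (bars are SE, dashed line equal differences). Filled points had a limma interaction with an adjusted p under 0.05. Itih5 stood at -0.59 on the vertical and 3.98 on the horizontal axis as deposited.

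Other genes of the same matrix were read by the brightest probe set of each gene, by lists. Of 20 further proteoglycans, 41 matrix glycoproteins, 38 genes of glycosaminoglycan synthesis, 9 of hyaluronan and 5 of the gelsolin family, none was called in Ets1 null or in Ets2 null against WT by limma. No other transglutaminase was among the genes used. In arrays labelled Ets1/2 null against WT, 9 of the 38 genes that build glycosaminoglycan chains were lower as deposited and centred, beside 1212 of all 11015 genes, and 0 were higher, beside 266. Among them were Chpf2, a chondroitin polymerising factor, at -3.24 ± 0.33, Xylt2, which starts the chain, at -2.09 ± 0.25, Extl3 at -2.08 ± 0.31 and Chst2, a sulphotransferase, at -1.98 ± 0.33 (adjusted p = 7.09e-05, 0.000181, 0.000617 and 0.00112). Of the 20 proteoglycans, Acan, aggrecan, rose by 1.32 ± 0.40 and Gpc1, the cell-surface glypican-1, fell by 1.97 ± 0.34 on both scales. Of the 41 matrix glycoproteins 2 were called higher on both scales (4.88%, beside 2.41% of all genes). These were Abi3bp (2.55 ± 0.78 as deposited, 3.35 centred) and the elastic-fibre protein Emilin2 (1.10 ± 0.29 as deposited, 1.9 centred). Hyal2, which degrades hyaluronan, fell by 2.37 ± 0.25 (adjusted p = 9.11e-05) and was the 1 of 9 hyaluronan genes called on both scales. Against Ets2 null, 4 of 41 matrix glycoproteins were lower on both scales in arrays labelled Ets1/2 null, beside 1352 of all 11015 genes, and 2 were higher, beside 337. The higher ones were Eln, elastin, at 2.63 ± 0.95 and Emilin2 at 2.20 ± 0.29. The lower ones were Ltbp2 at -3.79 ± 0.95, Fbln7 at -3.47 ± 0.61, Ltbp4 at -2.51 ± 0.44 and Mfap2 at -1.97 ± 0.25. The deposited median difference from WT of the 38 glycosaminoglycan genes was -0.72, beside -0.61 over all genes, and that of the 20 proteoglycans -0.44. The endothelial list had -1.82 with 0 of 9 genes called on both scales, the fibroblast list -0.54 with 1 of 18 called lower (Cd248) and the smooth muscle list -0.02 with 0 of 11. The endothelial list median, given as above, was -0.43 and -1.14 in arrays labelled Ets1/2 null, -0.39 to 0.33 in Ets1 null arrays, 0.41 to 1.31 in Ets2 null and 0.11 to 0.50 in WT. After centring it was 0.17 and -0.53 in arrays labelled Ets1/2 null, -0.64 to 0.10 in Ets1 null arrays, 0.23 to 1.15 in Ets2 null and -0.11 to 0.35 in WT, with the first array of the Ets1/2 null label inside the WT range, and its part in the member differences was not tested.

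**Figure D4:**
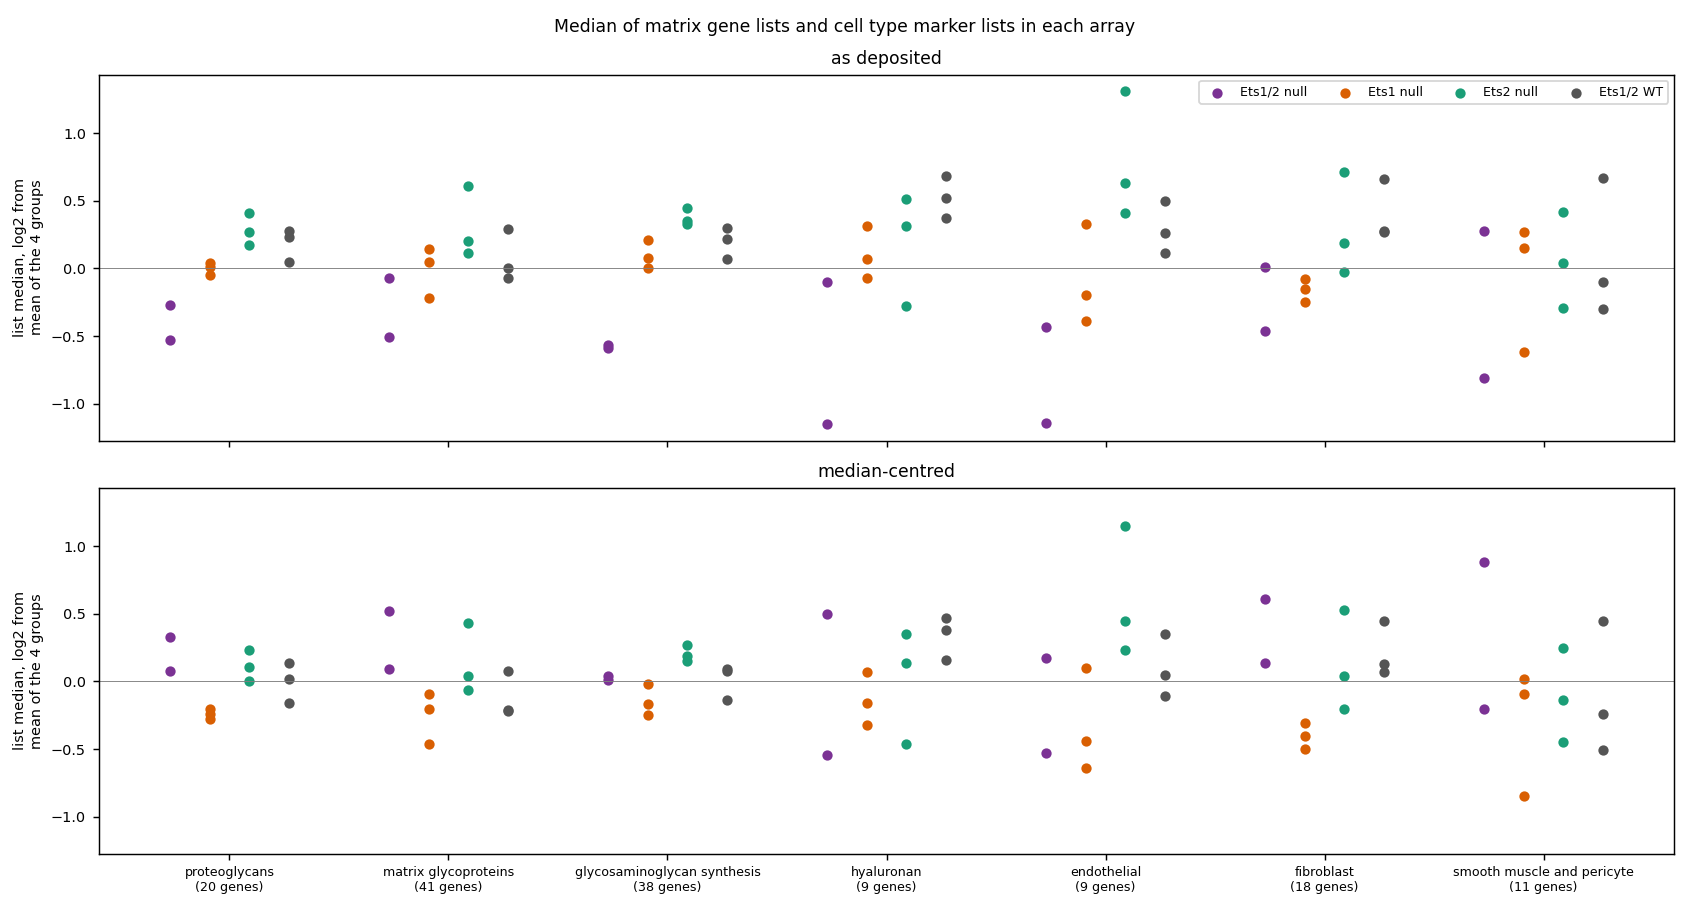
Median of each gene list in each of 11 arrays, as log2 difference from the mean of the 4 groups (vertical axis), as deposited above and centred below, with groups from Ets1/2 null to Ets1/2 WT in each list. The fibroblast list lay at -0.03 to 0.71 in Ets2 null and at 0.27 to 0.66 in Ets1/2 WT.

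The genes most like each member over the 11 centred arrays were picked by Pearson's r among 11015 genes, by brightest probe set. The values describe arrays that share groups and normalization. Hoxc9 was nearest to Itih5 (r = 0.969), Iffo1 to Gsn (0.971) and Nexn to Prelp (0.95). Jam3, a junction protein, was nearest to Dpt (0.912), followed by the matrix glycoprotein Ltbp2 (0.908). Ap1s2 was nearest to Tgm2 (0.959), Trim25 to Fbln1 (0.965) and then Serpinf1 (0.95). Msrb3 was nearest to Bgn (0.945), Rtca to Dcn (0.943), Zfp235 to Lum (0.925) and Clip1 to Fmod (0.965).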

How the data were processed

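The 12 deposited columns hold log2 values, 1 per probe set. RMA is named in the submitters' processing notes; the sources used here give no version or filter, nor whether the arrays were normalised as 1 set. The authors' log2 values were used as deposited and after centring each array on its median. Per the probe table, 18824 probe sets carry 1 symbol, 549 several and 1150 none; 18788 were matched to RefSeq by Entrez identifier. limma 3.58.1 in R 4.3.3 (lmFit, eBayes, two-sided) fitted group means to all 20523 probe sets over 11 arrays, with Benjamini-Hochberg adjustment over all of them; 6 comparisons were made. Ets1/2 null replicate 3 was left out because it equals the mean of its group's other columns within 1e-06 (2 probe sets differ, by up to 0.585). Precision is limited by the number of arrays. Where groups are said not to overlap, the share of all probe sets without overlap was not counted. pandas 2.3.3 and matplotlib 3.10.9 made tables and plots.

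The members and lists were chosen with earlier results of these data known. All members are named with every probe set; each other list names up to 4 genes, the largest differences among those called on both scales. The same number in the labels did not pair arrays: deviations from group means correlated between -0.237 and 0.1. Tested on simulated data of 20523 probe sets with 50 changed per size, changes of 2 (log2) were recovered in 88% for Ets1 null, 86% for Ets2 null and 78% for Ets1/2 null against WT, with 6, 7 and 9 false calls. Changes of 1 were recovered in 32%, 24% and 28%. The simulated arrays had few changed probe sets and no shift of an array's median. Recovery and false calls in the real comparisons with the Ets1/2 null label can therefore differ from these. Alternatives were quantile normalization, 1 probe set or the mean per gene, the dimmest probe sets left out, only the arrays compared, replicate 3 kept, each array left out, a replicate block, array weights, a trend and robust fit, and a term for male arrays. Some were repeated on centred values, a choice made after seeing the data. Keeping replicate 3 counts the mean of the other columns as an array. It adds no data and understates the spread, so a call kept there is no separate check.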

Additional observations from a re-analysis of the deposited data

Results flagged for a closer look

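In 3 probe sets the difference of Ets1/2 null from Ets1 null was not that of Ets2 null from WT by limma's interaction term, as deposited and after centring. The interaction was called lower in 9 of 22 member probe sets as deposited, beside 34.0% of all probe sets. After centring it was called lower in 3, beside 9.36%, so such a call was not particular to the members. Itih5 1429159_at had -4.57 on the log2 scale, with -0.59 for Ets1/2 null against Ets1 null and 3.98 for Ets2 null against WT. Gsn 1415812_at had -2.34, with -1.31 and 1.03 in the same comparisons. Tgm2 1426004_a_at had -2.47, with -3.01 and -0.53. All 3 rest on the 2 arrays labelled Ets1/2 null. The Itih5 interaction was also lost, after centring, with a term for male arrays (-4.04, adjusted p = 0.0594).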

How the results depend on the processing

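The 79 called member differences, with deposited and centred calls counted separately, gave 1412 values over the alternative fits. Calls found only in an alternative are not among them. The call and direction were kept in 1131, the call was lost in 278 and the sign turned in 3. Those 3 were Bgn 1416405_at, called higher in arrays labelled Ets1/2 null after centring, with -0.01 against WT and -0.09 against Ets1 null as deposited, and the Fbln1 1439688_at interaction, with 0.05 after centring. The cause was not tested.

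Counts of called member probe sets moved as follows. Those with replicate 3 kept rest on an understated spread, since that column is the mean of the others. In Ets1/2 null against WT the count of 11 was 7 without the dimmest probe sets and 7 with array weights, and the centred count of 11 was 5 with array weights and 7 with the term for male arrays. Leaving out 1 array gave 9 to 11, and 5 to 11 centred. In Ets1 null against WT the count of 0 was 1 with replicate 3 kept and 3 with array weights (3 centred), and 0 to 1 with 1 array left out on either scale. In Ets2 null against WT the count of 2 was 1 without the dimmest probe sets, 0 with only the arrays compared, 5 with replicate 3 kept, 6 with array weights (6 centred) and 0 with the term for male arrays (0 centred), and 0 to 2 with 1 array left out on either scale. The 2 genes called by brightest probe set were 1 when genes were fitted by brightest probe set and 1 by the mean of probe sets. In Ets1/2 null against Ets1 null the count of 4 was 2 after quantile normalization and 7 with only the arrays compared, the centred count of 5 was 3 with array weights, and the 2 genes called became 0 by the mean of probe sets. Leaving out 1 array gave 4 to 6, and 1 to 7 centred. In Ets1/2 null against Ets2 null the count of 16 was 9 with the term for male arrays, and the centred count of 13 was 4. Leaving out 1 array gave 14 to 16, and 10 to 13 centred. The interaction count of 9 was 5 with the term for male arrays, and the centred count of 6 was 2 with it and 3 with array weights. Leaving out 1 array gave 7 to 10, and 3 to 7 centred.

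With a replicate block, the count in Ets2 null against WT was 0 as deposited and 0 centred, against 2 without it. The labels' numbers did not pair the arrays, so this is not read as a weaker effect. The other counts with the block stayed near those reported. The group labelled Ets1/2 null has 2 arrays, so its calls lean on the spread of the other groups whenever 1 of them is left out. All Ets2 null arrays and 1 WT array are male, so sex and group can be told apart only through that WT array.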
